A study of Homo sapiens with 6 samples.

Results

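The chromatin of 10 genes of the YAP and TEAD pathway was examined, out of 20175 protein-coding genes in the GENCODE v44lift37 annotation of hg19. They were chosen by name: the coactivators YAP1 and WWTR1, the transcription factors TEAD1, TEAD2, TEAD3 and TEAD4, and the target genes CCN1, CCN2, ANKRD1 and AMOTL2. For each gene, accessible sites were taken from 50 kb upstream of the gene to its end, which together covered 1276 kb. Accessibility was measured by ATAC-seq, in which a transposase inserts sequencing adapters into open DNA. The cells belonged to MDA-MB-231, a human cell line of triple-negative breast cancer. In the 6 libraries, 3 of parental cells were compared with 3 of SAP30-KO1 cells, a derivative with CRISPR/Cas9 knockout of SAP30. SAP30 is a subunit of the SIN3 complex, and the comparison asked whether its loss altered chromatin accessibility. By the study's methods, a knockout line was a pool of multiple selected knockout cells rather than 1 clone, and no other treatment distinguishes the groups in the labels. Where the 3 cultures of each group came from is not given in the sources used here, so the p-values measure only the spread between these libraries. No wild-type line that had passed through the same selection, second knockout line or rescue line was analysed here.

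YAP1 and WWTR1 (also called TAZ) are the coactivators that the Hippo pathway restrains. When the Hippo kinases LATS1 and LATS2 are active, they phosphorylate YAP1 and WWTR1, which are then held in the cytoplasm or degraded. When the kinases are inactive, the coactivators enter the nucleus and bind the TEAD factors, because they have no DNA-binding domain of their own. CCN1, CCN2 and ANKRD1 are widely used readouts of this activity, and AMOTL2 is a target whose product holds YAP1 in check. In breast cancer cells the pathway is known for its links to growth, migration and metastasis.

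Each library listed 29762 to 40650 peak summits, each with the score that the peak caller gave it (−log10 of the q-value). Because scores depend on depth, each was expressed as its percentile rank among all summits of its library, from 0 to 100, with 0 where a site had no summit. A site without a summit was not called open at that depth, and read depth is not known from these lists. In these bulk libraries, fewer cells with an open site and less opening per cell cannot be told apart. Of the mesenchymal markers, VIM and CD44 had a promoter summit in all 6 libraries, and ZEB1 and FOSL1 in 3 and 2. Of the 6 luminal or epithelial markers, none had a promoter summit in all 6 libraries, EPCAM and GATA3 had one in 5, ERBB3 in 4, ESR1 and PGR in 1, and CDH1 in none. The promoter of SAP30 ranked at 84.7, 64.8 and 81.3 in parental cells and 71.8, 49.5 and 89.5 in SAP30-KO1 cells, and promoter accessibility does not check a CRISPR knockout.

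Summits were extended by 250 bp on each side and merged across libraries into 56419 loci. The regions of the 10 genes held 56 of them, from 2 for TEAD2 and TEAD3 to 12 for TEAD1. By position, 17 lay within 1 kb of a start site of the gene itself, 3 at the promoter of another gene, 24 in introns, 1 in an exon and 11 upstream. A summit in all 6 libraries was found at 21 of the 56 loci (37.5%), against 28.9% of all loci. A further 18 were listed in 1 library only, and the remaining 17 in 2 to 5. No 2 libraries were copies of each other, since at most 0.598% of positions were identical between any 2 lists.

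TEAD factors bind the letters GGAATG, which read CATTCC on the other strand, and AP-1 factors, frequent partners of TEAD at distal sites, bind TGACTCA or TGAGTCA. Both motifs were searched on both strands within 100 bases on each side of each summit. The TEAD motif was present in 11 of the 56 loci (19.6%) and in 14.2% of all loci. Of the 10 loci that were open in all 6 libraries and lay at promoters, 5 held it, against 8.70% of the 7165 such loci genome-wide. These 5 include the promoter of DKKL1 beside TEAD2 and the 3′-end locus of YAP1, which is not its 5′ promoter. Outside promoters the motif was present in 13.9% of the loci of these genes, against 16.2% genome-wide, and in 18.2% of those open in all 6 libraries, against 18.4%. The AP-1 motif was present in 5 of the 56 loci (8.93%), against 13.5% of all loci, and no locus of these genes held both. A match is a description of the letters and not evidence of binding. The sequences that follow are from the plus strand of GRCh37 (hg19), with motif letters in capitals. They are shown because they lie under the loci that carry the results below: the strongest site of YAP1, the main promoter summits of WWTR1 and ANKRD1, and the intronic or upstream sites of WWTR1, TEAD1, TEAD3, CCN1 and ANKRD1 whose ranks separated the groups. The loci of WWTR1 and CCN1 that also separated the groups hold neither motif and are shown without capitals.
YAP1, near the 3′ end, chr11:102096605-102096805: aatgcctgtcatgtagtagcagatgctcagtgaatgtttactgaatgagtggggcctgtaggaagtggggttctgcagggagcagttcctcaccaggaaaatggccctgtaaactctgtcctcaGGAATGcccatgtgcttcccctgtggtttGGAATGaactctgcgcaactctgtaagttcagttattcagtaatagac
WWTR1, promoter, chr3:149375912-149376112: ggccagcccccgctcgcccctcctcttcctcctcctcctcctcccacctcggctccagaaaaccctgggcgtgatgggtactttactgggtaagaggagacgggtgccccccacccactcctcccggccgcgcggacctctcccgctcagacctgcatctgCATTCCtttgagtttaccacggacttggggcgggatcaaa
ANKRD1, promoter, chr10:92681057-92681257: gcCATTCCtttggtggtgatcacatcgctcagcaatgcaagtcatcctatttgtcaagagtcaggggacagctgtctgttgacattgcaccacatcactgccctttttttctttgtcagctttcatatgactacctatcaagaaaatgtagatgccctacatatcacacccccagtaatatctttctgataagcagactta
TEAD1, last intronic locus, chr11:12922307-12922507: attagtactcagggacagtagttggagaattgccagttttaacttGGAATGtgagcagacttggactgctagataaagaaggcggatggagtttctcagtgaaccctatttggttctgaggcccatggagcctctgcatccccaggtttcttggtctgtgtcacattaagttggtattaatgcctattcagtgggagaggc
TEAD3, intron, chr6:35453164-35453364: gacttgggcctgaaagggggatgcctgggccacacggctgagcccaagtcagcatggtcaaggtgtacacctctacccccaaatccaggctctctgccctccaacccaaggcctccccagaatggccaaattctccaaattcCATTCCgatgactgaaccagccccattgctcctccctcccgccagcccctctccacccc
ANKRD1, upstream, chr10:92720353-92720553: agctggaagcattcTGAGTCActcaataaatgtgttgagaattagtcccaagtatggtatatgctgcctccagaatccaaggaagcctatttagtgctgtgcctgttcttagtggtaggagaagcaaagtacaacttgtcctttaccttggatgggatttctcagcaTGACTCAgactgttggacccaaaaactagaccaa
WWTR1, intron upstream of the canonical start, chr3:149396369-149396569: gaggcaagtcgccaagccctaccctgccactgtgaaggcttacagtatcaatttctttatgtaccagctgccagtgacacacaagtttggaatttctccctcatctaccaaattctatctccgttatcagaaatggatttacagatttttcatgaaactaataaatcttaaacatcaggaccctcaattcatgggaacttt
CCN1, upstream, chr1:86010504-86010704: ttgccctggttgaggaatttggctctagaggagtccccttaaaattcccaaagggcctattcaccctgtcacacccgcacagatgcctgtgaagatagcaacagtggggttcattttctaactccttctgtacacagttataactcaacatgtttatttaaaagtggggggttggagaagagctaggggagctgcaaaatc

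At promoters, defined as within 1 kb of any annotated start site, 9 of the 10 genes had a summit in at least 1 library and 6 had one in all 6 libraries. TEAD2 had none. Among the 9, the rank was lower in SAP30-KO1 cells for 7, with a median difference of −7.86 percentile points, beside a median of 0.67 and 46.9% lower over all 12572 protein-coding genes with a promoter summit. That median is the value of YAP1 itself, which came from a locus near the 3′ end of the gene (below). With canonical start sites only, the median was −6.35. For TEAD3 and CCN1 the lower rank rested on a summit in a single parental library. For WWTR1, TEAD1 and AMOTL2 the sign turned when certain libraries were left out. The ranks of the groups did not overlap for 1 gene, YAP1, which was lower in SAP30-KO1 cells. Over all 12572 genes, 4.57% were lower without overlap and 6.01% higher without overlap, and 1 of 9 (11.1%) is near the 10.6% in either direction. With 3 libraries against 3, the exact permutation test cannot give a two-sided p below 0.10, and no gene passed a threshold of 0.05 (adjusted p = 0.945 for YAP1, Benjamini-Hochberg over the 12572 genes).

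**Figure D1:**
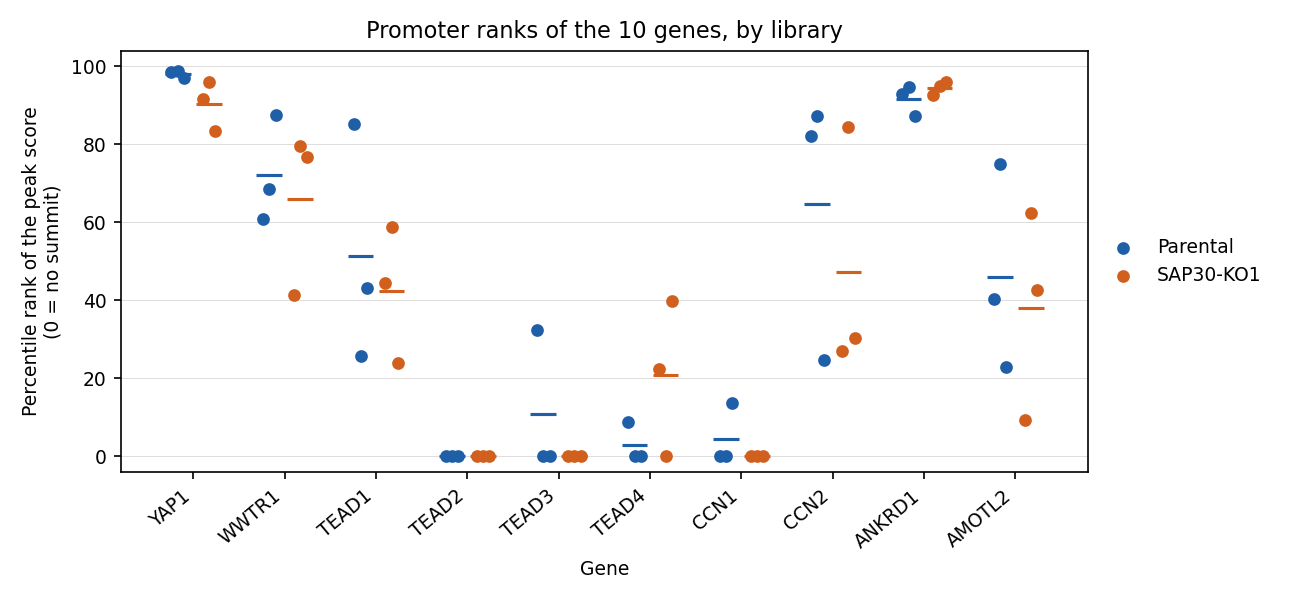
Percentile rank of the highest promoter summit (vertical axis, 0 where none was called) for each of the 10 genes (horizontal axis), with 1 point per library, parental libraries in blue, SAP30-KO1 libraries in orange, and a bar at each group mean. Only for YAP1 do the colors separate, with 97.1 or more in parental and 95.9 or less in SAP30-KO1 libraries.

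YAP1 (ENSG00000137693, chr11:101981178-102104155, plus strand) ranked at 98.5, 98.8 and 97.1 in parental cells and at 91.5, 95.9 and 83.4 in SAP30-KO1 cells by this definition. The difference was −7.86 percentile points (98.1 ± 0.895 against 90.3 ± 6.35, SD, n = 3 each, exact permutation p = 0.1). These values, however, did not come from the 5′ promoter. They came from a locus near the 3′ end of the gene (chr11:102096455-102097098), 116 kb downstream of the canonical start. It lies 999 bp from the start of a YAP1 transcript with no annotated coding sequence. In the sequence of this locus shown above, GGAATG occurs at 2 places, starting 24 and 53 bases from the summit. Its peak scores were 22.5, 23.6 and 18.3 in parental cells and 13.3, 20.1 and 11.2 in SAP30-KO1 cells, so the highest SAP30-KO1 score lay above the lowest parental score although the ranks did not overlap.

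The canonical promoter locus of YAP1 (chr11:101980553-101981493), which also covers the start of the lncRNA ENSG00000277459, was much weaker and held neither motif. It ranked at 49.2, 12.1 and 46.5 in parental cells and at 7.73, 74.8 and 16.8 in SAP30-KO1 cells. The groups overlapped widely, with the highest and the lowest rank both in SAP30-KO1 cells (difference −2.83, exact permutation p = 0.9). With start sites restricted to the basic set of transcripts, the difference for YAP1 turned to 6.25. A summit beside a downstream alternative start of YAP1 was listed in only 1 library of each group.

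Inside YAP1, the intronic locus 68.2 kb from the start (chr11:102048779-102049641) was the strongest outside promoters. It ranked at 64.1, 65.7 and 53.0 in parental cells, was absent from SAP30-KO1 libraries 1 and 2, and ranked at 46.0 in the third. A second intronic locus, 47.0 kb from the start (chr11:102027830-102028520), was listed in all 3 parental libraries at 31.4, 62.2 and 5.99 and in no SAP30-KO1 library. Both separated the groups at modest ranks. YAP1 held 7, 6 and 6 summits in parental cells and 3, 4 and 4 in SAP30-KO1 cells (6.33 ± 0.577 against 3.67 ± 0.577, SD, exact permutation p = 0.1). Of its 9 loci, 3 were listed in a single parental library and none in a single SAP30-KO1 library. On 11q, the arm of YAP1, 39.4% of the 454 loci open in all 6 libraries were lower without overlap. Genome-wide, 0.876% of all loci were listed in every parental and no SAP30-KO1 library. Whether these intronic losses and summit counts differed from other 11q loci absent from some libraries was not tested.

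**Figure D2:**
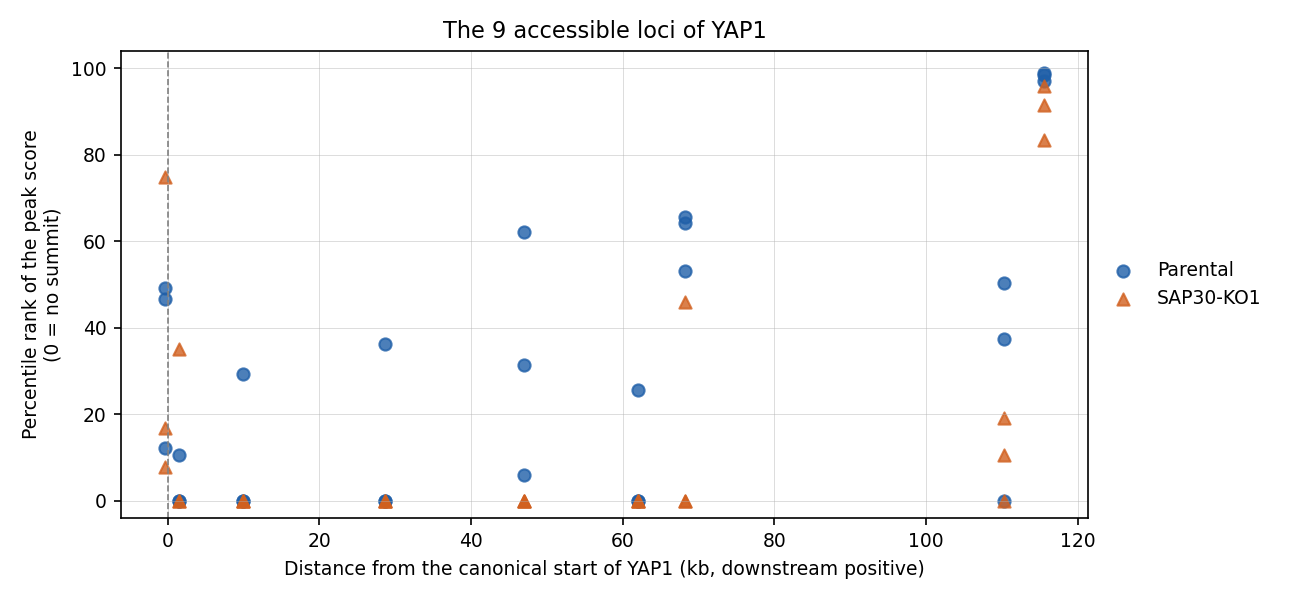
Percentile rank (vertical axis, 0 where no summit was called) of the 9 loci of YAP1 against distance from its canonical start in kb (horizontal axis), with parental libraries as blue circles and SAP30-KO1 libraries as orange triangles. The locus 116 kb downstream ranks above 83 in every library, the canonical promoter at 0 kb is spread from 7.73 to 74.8, and the locus at 47.0 kb has only blue points above 0.

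YAP1 lies on the long arm of chromosome 11, where ranks were lower in SAP30-KO1 cells over most of the arm. Of the 454 loci of 11q that were open in all 6 libraries, 88.8% were lower in SAP30-KO1 cells, with a median difference of −14.7 percentile points, and 39.4% were lower without overlap between the groups. On the short arm, 11p, the median of 301 loci was −1.73, and on all other chromosomes the median of 15559 loci was 0.45. The difference of the 3′-end locus of YAP1 was smaller than that of the arm. It lay 6.86 points above the median of the other 453 loci, and 69.8% of them had a lower difference. Ranks are bounded at 100, so loci of like rank were also compared. Among the 62 other 11q loci with a mean rank of at least 90, a scope chosen after the values were seen, the median difference was −4.25, only 19.4% had a lower difference than YAP1, and 33 were lower without overlap. On the scale of log2(score over the library median), YAP1 differed by −0.67 (SE 0.248) and the median of the other 11q loci was −0.55, with 38.6% of them lower than YAP1. Whether YAP1 stood above or below the arm therefore turned with the scale and with the loci it was set against. When summits were ranked only among those of 11q, the 3′-end locus ranked at 96.5, 97.3 and 94.7 in parental cells and at 93.0, 97.1 and 87.9 in SAP30-KO1 cells. Within the arm the groups overlapped (difference −3.49, exact permutation p = 0.3).

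The canonical promoter locus of YAP1 lay 11.9 points above the median of the other 11q loci, and its rank within the arm was 4.43 points higher in SAP30-KO1 cells (exact permutation p = 0.9). Loci within 5 Mb of YAP1 (n = 47) had a median difference of −14.6, and the 218 promoter loci of 11q one of −13.8, both close to the arm as a whole.

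**Figure D3:**
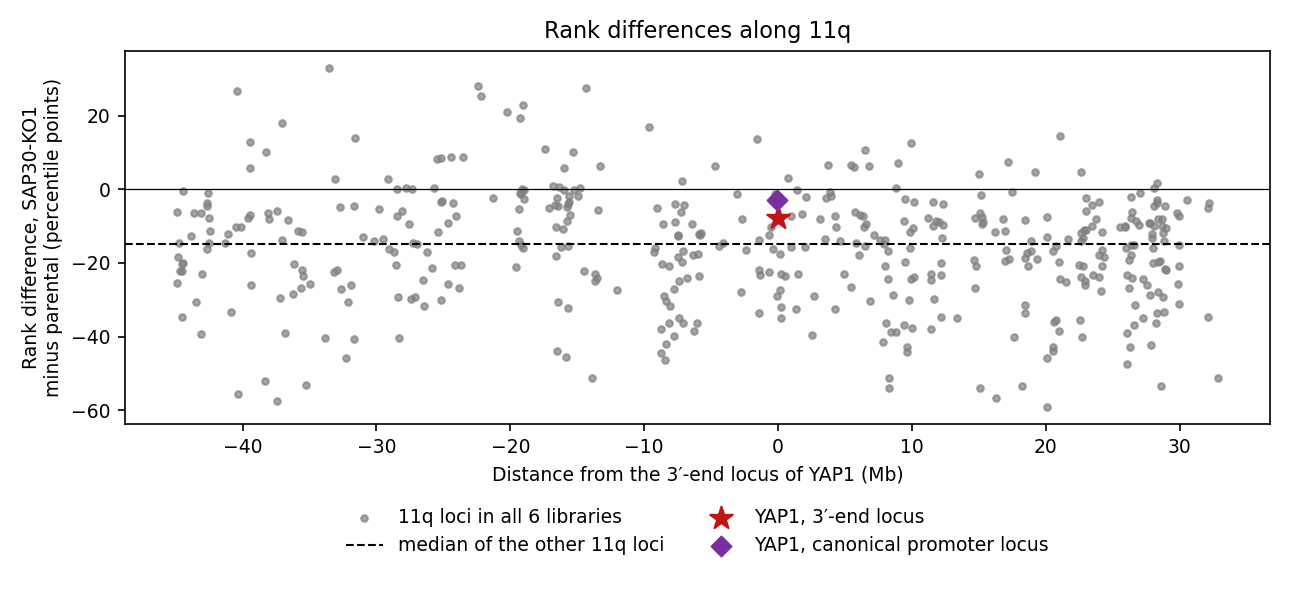
Difference in percentile rank between SAP30-KO1 and parental cells (vertical axis, percentile points) for loci of 11q open in all 6 libraries (grey), against distance in Mb (horizontal axis). The 3′-end locus of YAP1 is a red star, its canonical promoter locus a violet diamond, and a dashed line marks the median of the other 11q loci. Grey points are placed by distance from the start of YAP1. The star and diamond are placed from the 3′-end locus that the axis label names, an offset of about 0.116 Mb. Grey points lie mostly below 0 along the whole arm, and both YAP1 loci lie above the dashed line at −14.7.

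Among the 19 protein-coding genes that start within 1 Mb of YAP1, 11 had a promoter summit in at least 1 library, and all 11 had a lower mean rank in SAP30-KO1 cells. The ranks did not overlap for 5 of them: CFAP300 (−53.4 points), BIRC3 (−34.9), TMEM123 (−54.6), DCUN1D5 (−15.6) and DYNC2H1 (−7.35). Beside this, 4.57% of the 12572 protein-coding genes with a promoter summit were lower without overlap. On 11q it was 39.4% of the 454 loci open in all 6 libraries. Those loci were of any class and exclude sites missing from a library, unlike the promoters of CFAP300 and TMEM123. The share over 11q promoters with a summit in at least 1 library is not given here. BIRC3, an inhibitor of apoptosis, ranked at 91.7, 93.1 and 88.8 in parental cells and at 32.1, 72.1 and 64.8 in SAP30-KO1 cells. Its neighbor and paralog BIRC2 ranked at 80.2, 78.4 and 80.8 in parental cells and at 82.8, 67.4 and 20.2 in SAP30-KO1 cells, so that these groups overlapped. TRPC6 (−10.1) and CEP126 (−1.14) overlapped too, and PGR, MMP7 and MMP10 had a summit in 1 parental library only. By the Euclidean distance of the 6 ranks from those of YAP1 at its 3′-end locus, not its canonical promoter, the closest of 485 other genes on 11q were DYNC2H1 (distance 2.98), ETS1 (7.62) and TNKS1BP1 (8.28). All 3 ranked above 95 in each parental library, and their mean differences were −7.35, −6.08 and −6.27 points. This likeness follows from choosing them by these same ranks.

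**Figure D4:**
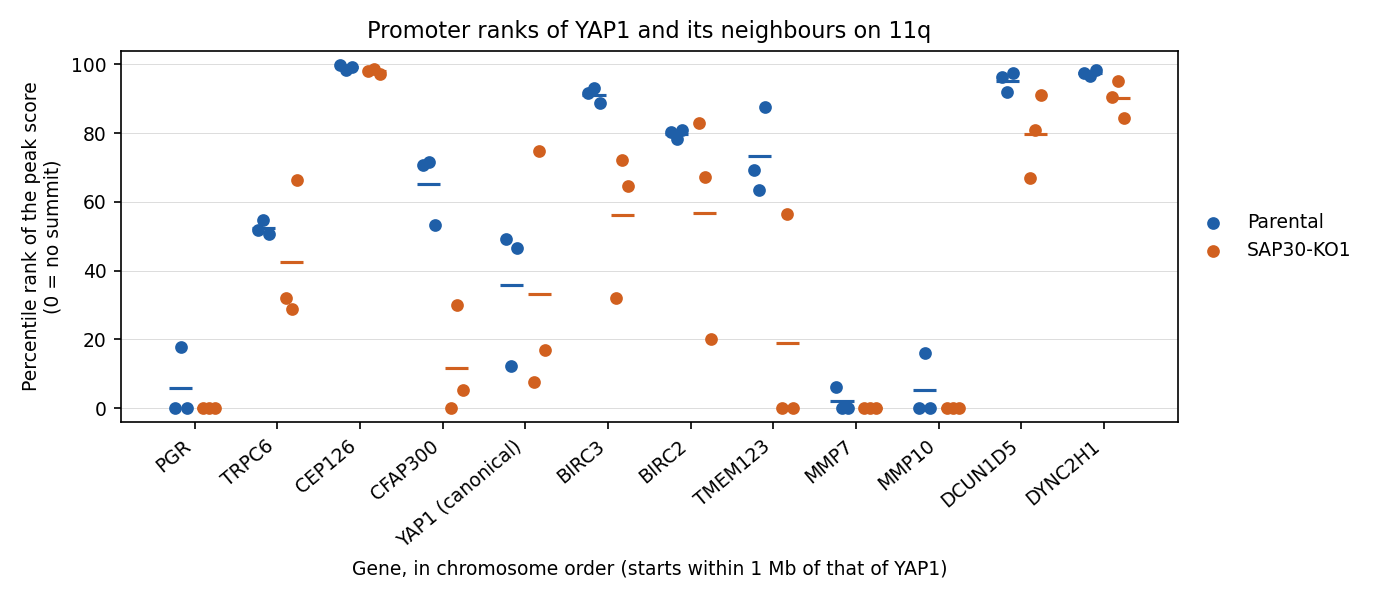
Promoter percentile rank by library (vertical axis, 0 where no summit was called; parental in blue, SAP30-KO1 in orange, bars at group means) for YAP1 at its canonical start and the 11 neighboring genes with a promoter summit, in chromosome order (horizontal axis). Blue and orange separate for CFAP300, BIRC3, TMEM123, DCUN1D5 and DYNC2H1, while YAP1 at its canonical start overlaps between 7.73 and 74.8.

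WWTR1 (ENSG00000018408, chr3:149235022-149454501, minus strand) encodes the second coactivator. Its canonical promoter (chr3:149375529-149376757), also the start of the antisense gene WWTR1-AS1, ranked at 60.8, 68.5 and 87.5 in parental cells and at 41.4, 79.7 and 76.7 in SAP30-KO1 cells. The groups overlapped (difference −6.35, exact permutation p = 0.8), and without parental library 3 or SAP30-KO1 library 1 the difference turned to 1.27 or 5.90. With a promoter window of 500 bp the difference was −18.6 (exact permutation p = 0.8). Among its other loci, one 20.7 kb upstream of the canonical start and inside an intron of longer transcripts (chr3:149395934-149396719) was higher in SAP30-KO1 cells. It ranked at 56.6, 51.5 and 31.0 in parental cells and at 71.7, 64.9 and 73.2 in SAP30-KO1 cells, without overlap (difference 23.6, exact permutation p = 0.1). The WWTR1 region held 10, 7 and 6 summits in parental cells and 5, 6 and 6 in SAP30-KO1 cells.

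Of the TEAD factors, TEAD1 was the only one with a promoter summit in every library. TEAD1 (ENSG00000187079, chr11:12695968-12966284, plus strand) lies on 11p. Its canonical promoter ranked at 62.8, 25.8 and 43.3 in parental cells and at 10.2, 58.7 and 23.9 in SAP30-KO1 cells, with wide overlap (difference −13.0, exact permutation p = 0.4). When a start site of a retained-intron transcript was included, the parental ranks were 85.2, 25.8 and 43.3 and the difference was −9.09, and this turned to 7.81 without parental library 1 and to 0.15 without SAP30-KO1 library 3. The promoter window held CATTCC at 2 places, 2 and 14 bases from the summit. The strongest TEAD1 locus outside promoters lay in an intron 226 kb from the start (chr11:12921824-12922657). It ranked at 84.2, 87.8 and 78.7 in parental cells and at 73.4, 73.4 and 73.7 in SAP30-KO1 cells, with no overlap (difference −10.1, exact permutation p = 0.1). Its sequence, shown above, holds 1 copy of GGAATG.

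TEAD3 (ENSG00000007866, chr6:35441374-35464856, minus strand) had a promoter summit in parental library 1 only, at rank 32.4. An intronic locus 11.6 kb from its start (chr6:35452461-35453906) was open in every library and was higher in SAP30-KO1 cells. This locus ranked at 56.0, 61.2 and 63.1 in parental cells and at 81.5, 79.8 and 68.7 in SAP30-KO1 cells (difference 16.6, exact permutation p = 0.1), and 1 CATTCC lies in its sequence. TEAD4 (ENSG00000197905, chr12:3068496-3149842, plus strand) had a promoter summit at rank 8.81 in parental library 1 and at 22.3 and 39.8 in SAP30-KO1 libraries 1 and 3. An intronic TEAD4 locus 4.85 kb from the start was listed in 5 of the 6 libraries, at 31.6, 42.9 and 34.6 in parental cells and at 0, 51.0 and 17.1 in SAP30-KO1 cells. TEAD2 (ENSG00000074219, chr19:49843852-49865714, minus strand) had no promoter or intronic summit. The 1 locus of its region that was open in all 6 libraries was the promoter of the adjacent gene DKKL1, and its other locus was listed in parental library 2 only, near the bottom of its ranks.

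CCN1 (CYR61; ENSG00000142871, chr1:86046444-86050272, plus strand) encodes a matricellular protein that promotes adhesion and angiogenesis. Its own promoter had a summit in parental library 3 only, at rank 13.6. Its region held 2 loci that were open in all 6 libraries, both upstream and inside the gene DDAH1, so they cannot be assigned to CCN1 from position alone. The locus 35.8 kb upstream (chr1:86010118-86010930) ranked at 93.7, 88.2 and 95.1 in parental cells and at 87.8, 83.2 and 77.7 in SAP30-KO1 cells. These ranks did not overlap, with a difference of −9.41 points (exact permutation p = 0.1). The locus 29.6 kb upstream (chr1:86016474-86017117) ranked at 89.0, 90.6 and 82.8 in parental cells and at 95.9, 91.4 and 86.8 in SAP30-KO1 cells. It differed by 3.90 points in the other direction, and its groups overlapped (exact permutation p = 0.4). The largest difference of the region lay nearer to the gene, 3.64 kb upstream at the promoter of ENSG00000282057 (chr1:86042263-86043051), a locus named after its values were seen. It was listed in 1 parental library, at 35.0, and in all SAP30-KO1 libraries, at 74.6, 17.4 and 61.6. The difference was 39.6 points higher in SAP30-KO1 cells, with overlap between the groups (exact permutation p = 0.2). An exonic locus of CCN1 was listed in 1 library of each group. The region held 3, 2 and 4 summits in parental cells and 3, 4 and 4 in SAP30-KO1 cells.

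CCN2 (CTGF; ENSG00000118523, chr6:132269316-132272512, minus strand) encodes a related matricellular protein linked to fibrosis. Its promoter, which also covers a start of LINC01013, ranked at 82.2, 87.2 and 24.8 in parental cells and at 26.9, 84.5 and 30.4 in SAP30-KO1 cells. The mean was 17.4 points lower in SAP30-KO1 cells, but libraries of both groups lay near 85 and below 31 (exact permutation p = 0.8). Each library left out in turn moved this difference by over 1.5 times: it was −8.69, −6.19 and −37.4 without parental library 1, 2 or 3 and −7.23, −36.0 and −8.99 without SAP30-KO1 library 1, 2 or 3. A locus 44.9 kb upstream inside LINC01013 (chr6:132316832-132317674) was listed in all SAP30-KO1 libraries, at 1.49, 82.8 and 36.7, and in no parental library. Its lowest rank lay at the edge of what was called at all. The CCN2 region held 2, 1 and 1 summits in parental cells and 2, 2 and 4 in SAP30-KO1 cells.

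ANKRD1 (ENSG00000148677, chr10:92671853-92680844, minus strand) encodes an ankyrin repeat protein of the nucleus and sarcomere and had the strongest 5′ promoter among the 10 genes. The promoter ranked at 92.9, 94.8 and 87.4 in parental cells and at 92.6, 95.0 and 96.0 in SAP30-KO1 cells (difference 2.85, exact permutation p = 0.4). Its upstream loci differed in unlike ways. The locus 10.2 kb upstream (chr10:92690717-92691366) ranked at 92.7, 76.0 and 91.0 in parental cells and at 59.8, 77.8 and 88.2 in SAP30-KO1 cells, with overlap. Next to it, 9.38 kb upstream (chr10:92689976-92690492), a locus was listed in all parental libraries at 40.3, 62.3 and 68.7 and in no SAP30-KO1 library. The locus 39.6 kb upstream (chr10:92719991-92720703), whose sequence holds 2 AP-1 motifs, was higher in SAP30-KO1 cells. It ranked at 69.6, 72.7 and 50.3 in parental cells and at 86.1, 88.3 and 75.1 in SAP30-KO1 cells, without overlap (difference 19.0, exact permutation p = 0.1). ANKRD1 held 4, 4 and 5 summits in parental cells and 3 in each SAP30-KO1 library (exact permutation p = 0.1).

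AMOTL2 (ENSG00000114019, chr3:134074189-134094321, minus strand) encodes an angiomotin-like protein that binds YAP1. Its promoter ranked at 40.2, 75.03 and 22.96 in parental cells and at 9.39, 62.4 and 42.6 in SAP30-KO1 cells, with overlap (difference −7.95, exact permutation p = 0.8). Without parental library 2 or SAP30-KO1 library 1, that difference turned to 6.53 or 6.42. Its strongest locus outside promoters lay in an intron 10.0 kb from the start (chr3:134082808-134083533), at 88.4, 77.2 and 94.5 in parental cells and 78.8, 81.5 and 85.9 in SAP30-KO1 cells. No locus of AMOTL2 separated the groups.

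Over the 21 loci of the 10 genes that were open in all 6 libraries, 13 were lower in SAP30-KO1 cells and the median difference was −4.67 points, beside 0.17 and 49.0% lower over all 16314 such loci. The groups did not overlap at 6 of the 21 (28.6%): lower at YAP1, TEAD1 and CCN1, and higher at WWTR1, TEAD3 and ANKRD1. Genome-wide, 7.08% of shared loci were lower without overlap and 8.58% higher without overlap. The TEAD motif was present at the lower loci of YAP1 and TEAD1 and at the higher locus of TEAD3, so loci with the motif differed in both directions. Loci listed in all libraries of 1 group and none of the other were 2 for parental cells (0.876% of all loci genome-wide) and 1 for SAP30-KO1 cells (1.43% genome-wide). When summits were ranked within their chromosome arm, an alternative chosen after the values were seen, the ranks still did not overlap at 5 of the 6 shared loci, with differences of −9.04 (TEAD1), −13.2 (CCN1), 22.1 (WWTR1), 19.1 (TEAD3) and 22.5 (ANKRD1), and YAP1 was the exception.

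**Figure D5:**
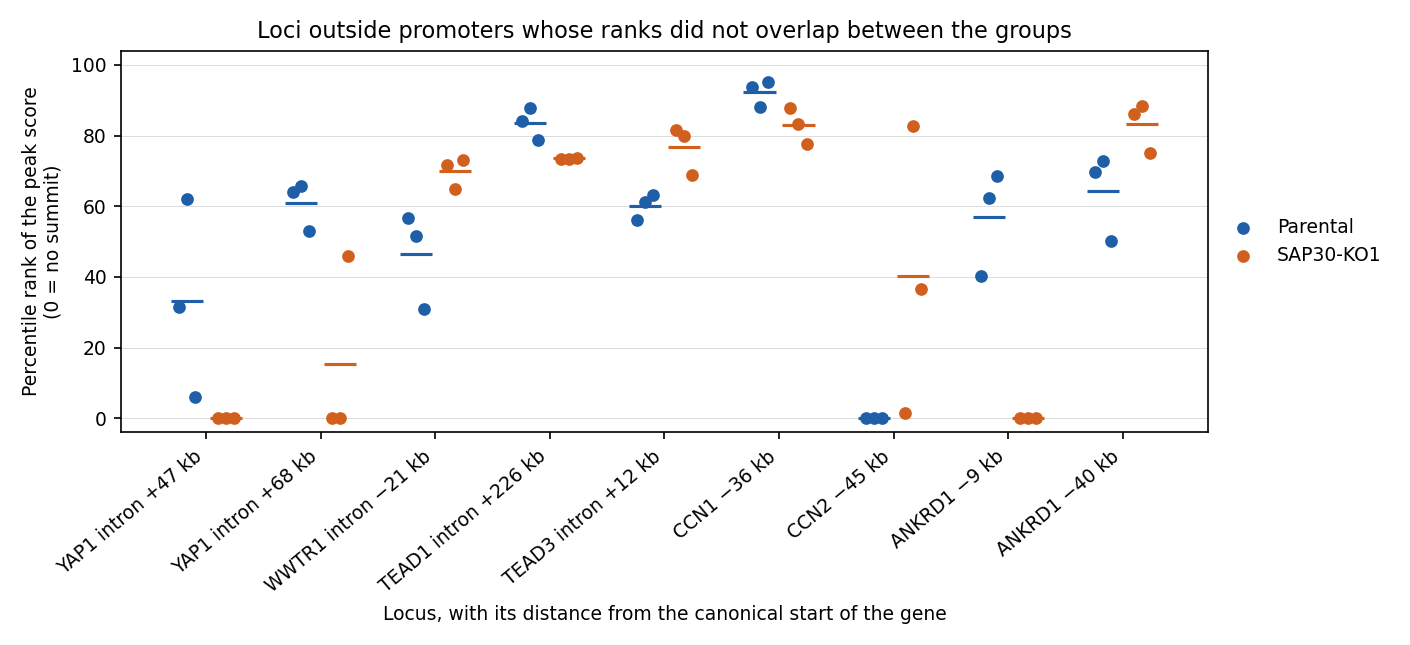
Percentile rank by library (vertical axis, 0 where no summit was called; parental in blue, SAP30-KO1 in orange, bars at group means) for the 9 loci outside promoters of these genes whose groups did not overlap (horizontal axis, with distance from the canonical start). In SAP30-KO1 cells 5 loci are lower, those of YAP1, TEAD1, CCN1 and the ANKRD1 site 9.38 kb upstream. Another 4 are higher, those of WWTR1, TEAD3, CCN2 and the ANKRD1 site 39.6 kb upstream. The genes had 36 loci outside promoters. Genome-wide, 7.08% of loci open in all 6 libraries were lower and 8.58% higher without overlap. Some of the 9 were absent from certain libraries, and no like share is given for such loci.

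A fit of the ranks of all 16314 shared loci in limma found no locus of these genes past an adjusted p of 0.05, and none in the genome (0% in either direction). At an unadjusted p under 0.05 there were 1511 loci genome-wide (9.26%) and 2 of the 21, the 3′-end locus of YAP1 and the CCN1 locus 35.8 kb upstream (lowest adjusted p of the 21 = 0.415, limma). On the scale of log2(score over the library median) the same fit called 112 loci genome-wide, 45 of them lower in SAP30-KO1 cells and 29 of these on 11q, and again none of the 21.

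The regions of the 10 genes together held 45, 33 and 36 summits in parental cells and 28, 33 and 37 in SAP30-KO1 cells, a difference of −5.33 per library that overlapped between the groups. Without parental library 1, which had the most, the difference was −1.83. As a share of each library the difference was −0.0183 percentage points. These shares are themselves small, such as 45 of 36694 summits in parental library 1. Total summits ran from 30477 to 36694 in parental and from 29762 to 40650 in SAP30-KO1 libraries. The part of this depth in the summit counts was not tested beyond an equal number of summits per library, which gave −5.33 again. SAP30-KO1 library 2, with the most summits of all 6, also had the highest SAP30-KO1 rank at both YAP1 loci that were open throughout. The same held at the promoters of WWTR1, TEAD1, CCN2 and AMOTL2. It did not hold at the promoter of ANKRD1, with 95.0 against 96.0 in SAP30-KO1 library 3, and library 2 had no promoter summit at TEAD4.

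Other genes of the pathway were described by the same promoter ranks, against the background of 4.57% lower and 6.01% higher without overlap. Among 20 Hippo regulators, 19 had a promoter summit and 10 had one in all 6 libraries. Their median difference was −0.26, and 1 gene separated the groups. This was LATS2, a kinase that phosphorylates YAP1, at 53.9, 51.5 and 56.4 in parental cells and 0, 48.3 and 46.0 in SAP30-KO1 cells. AMOTL1, an angiomotin-like regulator that lies on 11q like YAP1, ranked at 92.6, 97.3 and 84.7 in parental cells and at 92.5, 69.1 and 75.2 in SAP30-KO1 cells, with overlap. Of the TEAD cofactors, VGLL3 and VGLL4 had a promoter summit in every library and overlapped between the groups, and VGLL1 and VGLL2 had none.

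In a list of 18 YAP and TAZ target genes, which shares LATS2 and PTPN14 with the Hippo regulators, 15 had a promoter summit. Their median difference was 4.42 points, 3 were lower without overlap and 1 was higher. The lower genes were NUAK2, a kinase of the AMPK family, at 45.2, 40.8 and 9.38 in parental cells and 0, 0 and 3.71 in SAP30-KO1 cells, DOCK5, a guanine nucleotide exchange factor, and LATS2. DOCK5 ranked at 90.4, 63.6 and 76.3 in parental cells and at 0, 42.9 and 58.5 in SAP30-KO1 cells. NT5E, which encodes the ectonucleotidase CD73, was higher, at 43.9, 57.1 and 23.1 in parental cells and 76.3, 67.4 and 87.6 in SAP30-KO1 cells. Target genes without overlap lay in both directions, and none passed the threshold over all genes (adjusted p of 0.945 or above, exact permutation test with Benjamini-Hochberg adjustment).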

How the data were processed

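The authors made ATAC-seq libraries from MDA-MB-231 cells, either parental or SAP30-KO1. Per the paper's methods and the labels, single-end reads were trimmed with Trim Galore 0.4.5, aligned to hg19 with Bowtie2 2.3.3.1 and freed of duplicates with Picard, and peaks were called per library with MACS2 2.1.0 at q 0.05. Read shifting, blacklist filtering and mitochondrial filtering were not given in the sources used here, and no input or copy-number values were used. The deposited lists hold 1 summit per row with its score, −log10 of the q-value.

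Groups came from the labels. From the lists, percentile ranks, GENCODE v44lift37 promoters (1 kb), merged loci (1 bp overlap or more) and arms (split at the longest gap of the sequence) were computed with Python 3.11.15, numpy 2.4.6, pandas 2.3.3 and scipy 1.17.1. Groups were compared by a two-sided exact permutation test over 20 assignments and by limma 3.58.1 (R 4.3.3) with a variance trend, adjusted over all 16314 shared loci. The scripts were tested on simulated data. The genes and lists were chosen with earlier results of these data known. Named were, for each gene, its promoter locus, its strongest locus outside promoters and each locus listed in 1 group only, then neighbors of YAP1 within 1 Mb, the 3 genes of 11q most like it, and pathway genes without overlap. Other loci without overlap, AMOTL1 and VGLL genes were named after their values were seen. Summit numbers of 29762 to 40650 per library are the only measure of depth in the files.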

Additional observations from a re-analysis of the deposited data

How the results depend on the processing

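The lower rank of YAP1 depended on which start sites were used. With canonical transcripts or a 500 bp window, which leave out the 3′-end locus, the difference was −2.83. With basic transcripts, which also leave it out, the difference was 6.25. There the summit beside a downstream alternative start, at 35.0 in SAP30-KO1 library 1, replaced the canonical rank of 7.73 in that library. The number of the 10 genes whose promoter ranks did not overlap was 0 instead of 1 with a 500 bp window, with ranks within the arm, with basic transcripts and with canonical transcripts (the last chosen after seeing the data). It was 1 to 2 when each library was left out. Groups of 2 against 3 libraries separate more readily than 3 against 3, and no share over all genes is given at that size. The counts of 1 to 2 are therefore not comparable with the main count of 1. The rank difference of YAP1 minus the median of 11q was −3.60 against 11q loci with a mean rank of 90 or more, 11.9 for the canonical promoter locus and −0.118 on the log2 score scale, all 3 chosen after seeing the data, and 3.54 to 9.83 when each library was left out. Leaving out each library gave −10.7 to −4.42 for YAP1, −21.9 to 7.81 for TEAD1 (0.146 without SAP30-KO1 replicate 3), −13.2 to 5.90 for WWTR1 (1.27 without parental replicate 3), −20.1 to 6.53 for AMOTL2 (6.42 without SAP30-KO1 replicate 1), −37.4 to −6.19 for CCN2, −6.79 to 0 for CCN1, −16.2 to 0 for TEAD3, 8.23 to 28.2 for TEAD4, 0.689 to 4.39 for ANKRD1, −10.8 to −4.53 for the median over the genes and −7.83 to −1.83 for the summits. Deviations of libraries with the same replicate number correlated at −0.0179 to −0.0032 over shared loci, so the ranks held no sign of pairing by number. Such correlations cannot show whether libraries with the same number were prepared together. With the replicate block the YAP1 difference was −7.86 (exact sign-flip p = 0.25), the median −7.86, the summits −5.33 and the loci of these genes called by limma 0. Ranks and lists, with 3 libraries a group and unknown read depth, limit what can be detected.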
